A study of Mus musculus with 2 samples.

Results

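Short introns of spleen RNA, as a deposited junction list gives them, were followed here through 8516 splice junctions. A splice junction is a pair of genome positions joined by reads that skip the intron between them. Members were taken from the deposited junction list of the series, on the mm9 mouse assembly, as entries with an intron of 50 to 100 nt and 10 or more junction reads. Entries inside 2 immunoglobulin regions were left out, chr12:114400000-117300000 with the heavy chain genes and chr6:67500000-70750000 with the kappa light chain genes. The 8516 members are 1.99% of the 428708 entries of the list, and 7.15% of the 119036 entries of any length that have 10 or more reads outside those regions. Another 114 entries of the same length and read number fell inside the 2 regions. Members were thus selected on measured values, the intron length and the read number, and these are given as description only.

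The study sequenced RNA from spleens of C57BL/6J mice, an inbred black laboratory strain, at 8 weeks of age. Its 2 samples are biological replicates of a single group, for which no treatment is named, and the labels describe littermates of mixed sex without saying which animals gave which library. RNA above 200 nt was depleted of ribosomal RNA, selected for poly(A) tails, mixed with spike-in RNA and read from both ends at 76 nt with its strand kept. No condition was varied, so no test between groups exists, and differences between replicates measure only the spread of these 2 samples, which may be technical. Markers of the labelled tissue were present: the B cell receptor gene Cd79a stood at 1130 and 863 TPM in libraries 1 and 2. The transcription factor genes Tlx1, needed for the spleen to form, and Spic, of red pulp macrophages, stood at 46.0 and 33.6 TPM and at 6.66 and 11.1 TPM. The haemoglobin gene Hbb-bs of red blood cells stood at 61091 and 100661 TPM. A gene of the exocrine pancreas, Ctrb1, was far above Cd79a, at 36979 and 21059 TPM, and the part of such RNA in the results was not tested. TPM is a level per transcript length, scaled to a fixed total in each library.

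An intron has to hold a donor site at its 5′ end, a branch point, a pyrimidine-rich stretch and an acceptor site at its 3′ end, and the spliceosome has to assemble on all of them. This sets a lower limit on intron length, and in mammals many introns crowd just above that limit. When such a short intron is flanked by exons of ordinary size, the splice sites can be paired across the intron. A short intron that is not removed leaves a transcript with a retained intron.

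Each junction entry carries reads of replicates R1 and R2, which sum to its total, an irreproducibility value and a pair of marks written A and C. No source used here says what the marks stand for, and the entries do not say whether R1 and R2 are libraries 1 and 2 of the gene tables. They are therefore called R1, R2, mark A and mark C. No mm9 annotation or sequence was used, and so no member was tied to a gene. Short introns that are annotated in named genes were described separately on GRCm38 (mm10), the assembly of the gene and transcript tables.

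Sequences of some such annotated introns are printed here, without a search for branch points or pyrimidine-rich stretches. The sequences come from GENCODE M21 transcripts, and are readable only where the intron also lies inside an exon of another transcript of the gene. The first and last bases are in capitals, which mark the donor and acceptor dinucleotides, and each runs 5′ to 3′ on the transcribed strand. The first 3 had spliced transcripts at high level: Actb, the cytoplasmic actin gene (chr5:142905477-142905563, minus strand, 87 nt), Eef1a1, a translation elongation factor gene (chr9:78479193-78479277, minus strand, 85 nt), and Rps2, a small ribosomal subunit gene (chr17:24720453-24720533, plus strand, 81 nt).
Actb: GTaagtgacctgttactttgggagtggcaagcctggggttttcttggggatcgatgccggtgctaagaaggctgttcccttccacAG
Eef1a1: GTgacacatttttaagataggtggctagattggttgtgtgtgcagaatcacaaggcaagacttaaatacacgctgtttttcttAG
Rps2: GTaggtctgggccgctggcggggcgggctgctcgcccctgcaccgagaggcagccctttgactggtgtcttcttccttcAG
The next set starts with GC in place of GT: Man2c1, a cytosolic mannosidase gene (chr9:57141713-57141805, plus strand, 93 nt), and Psme1, a proteasome activator gene (chr14:55580042-55580113, plus strand, 72 nt).
Man2c1: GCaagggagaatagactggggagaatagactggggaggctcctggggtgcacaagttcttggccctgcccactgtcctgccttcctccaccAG
Psme1: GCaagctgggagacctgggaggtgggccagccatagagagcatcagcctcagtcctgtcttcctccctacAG
The shortest readable introns with GT and AG at this level were in Atp6ap1, an accessory subunit gene of the vacuolar proton pump (chrX:74303587-74303646, plus strand, 60 nt), and in Adck5 (chr15:76594611-76594673, plus strand, 63 nt).
Atp6ap1: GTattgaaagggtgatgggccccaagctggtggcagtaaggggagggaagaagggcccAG
Adck5: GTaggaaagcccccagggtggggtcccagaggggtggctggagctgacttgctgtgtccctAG
In the last set the transcripts that hold the intron were above those that splice it: Vim, the vimentin gene (chr2:13578509-13578588, plus strand, 80 nt), and Med12, a subunit gene of the Mediator complex (chrX:101294013-101294087, plus strand, 75 nt).
Vim: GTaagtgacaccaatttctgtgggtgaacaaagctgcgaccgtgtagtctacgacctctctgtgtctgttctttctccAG
Med12: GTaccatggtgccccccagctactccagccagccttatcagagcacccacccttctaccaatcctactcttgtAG
In all 9 genes the intron lies between exons of the spliced transcripts and inside an exon of a transcript annotated as retaining an intron. The Med12 intron is also inside annotated coding sequence of other transcripts.

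Member lengths crowded in the upper part of the window. The median was 86 nt and the most frequent length 88 nt, with 382 members, while 42.1% of members measured 80 to 89 nt. Below 65 nt members were few. The bins from 50 to 54, 55 to 59 and 60 to 64 nt held 70, 56 and 59 members, against 165 from 65 to 69, 560 from 70 to 74 and 1207 from 75 to 79 nt. The length window cut through the upper side of this peak, since 207 members had exactly 100 nt and 220 junctions were 1 nt too long. On the lower side 17 members had 50 nt and 6 junctions had 49 nt, but counts did not taper off there. With the same read minimum, counts per length from 31 to 49 nt ran from 5 at 38 nt to 19 at 32 and 33 nt. From 50 to 64 nt they ran from 7 at 55 and 61 nt to 18 at 54 nt. Members under 65 nt thus had a range of counts per length similar to that of junctions below the window. Annotated introns of 50 to 100 nt on GRCm38, 13196 in 6345 genes, had the same median of 86 nt, and 1.11% of them were 50 to 64 nt long, as were 2.17% of the members.

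**Figure D1:**
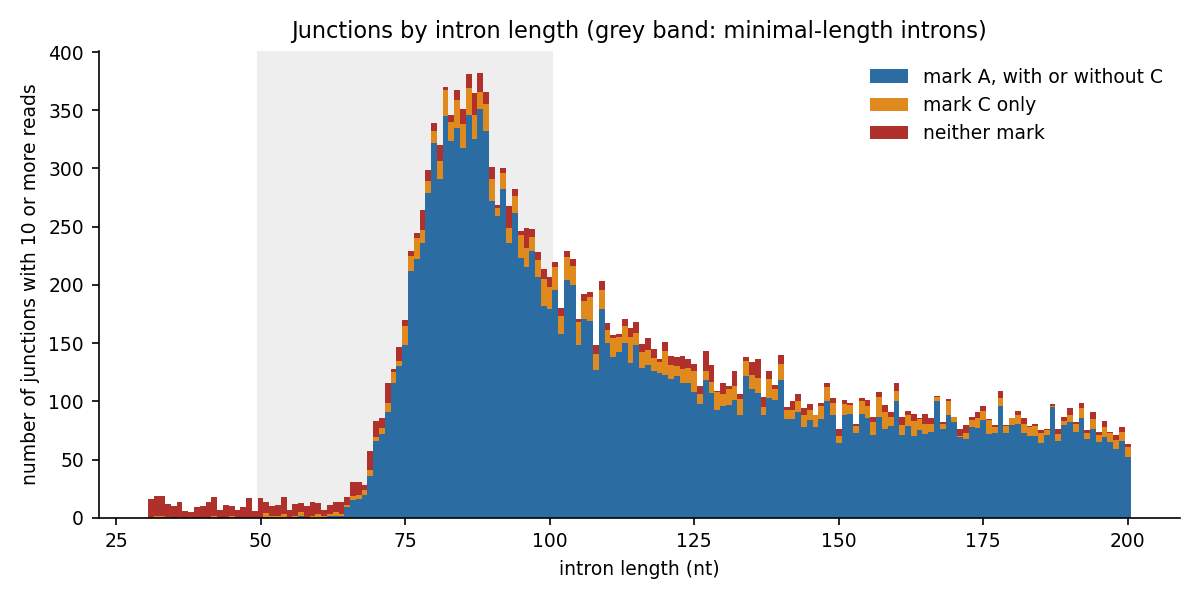
Number of junctions with 10 or more reads (vertical axis) at each intron length from 31 to 200 nt (horizontal axis), with bars stacked by mark A, mark C only and neither mark. Within the grey band of 50 to 100 nt, counts climb to 382 at 88 nt, and bars below 65 nt are mostly of junctions with neither mark.

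The marks divided the members by length. Both marks were set on 7491 members, mark C alone on 505, mark A alone on 23 and neither on 497. Of the 185 members under 65 nt, mark A was set on 11 (5.95%), mark C on 36 (19.5%) and neither on 148. Mark A was set on 58.2% of members from 65 to 69 nt, 84.8% from 70 to 74 nt and 92.8% from 80 to 84 nt. Mark C was set on 69.7%, 90.0% and 97.8% of the same bins. Members with both marks held 98.5% of all member reads. Their median was 152 reads, against 19 with mark C alone and 19 with neither. Among members with neither mark 43.3% had a length divisible by 3, against 31.8% with both marks and 32.8% of all members.

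Splice site letters of annotated introns also differed along this length range. Of 13196 annotated introns of 50 to 100 nt, 2501 could be read. GT at the start with AG at the end was found in 55.6% of the 63 readable introns of 50 to 64 nt, in 90.8% of 65 from 65 to 69 nt and in 97.5% of 2373 from 70 to 100 nt. GC with AG was found in 36 of the 2501 (1.44%). The donor words GTAAGT or GTGAGT, searched only as the first letters on the transcribed strand, opened 21.6% of these introns and 18.8% of the 3283 readable introns of over 100 to 200 nt. Median GC content was 56.8%, and 54.6% in the longer class. These shares describe introns that some transcript retains, since others could not be read.

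Members carried 3744574 of the 47250741 reads of the junction list, or 7.92%. R1 totalled 21824301 reads over all entries and R2 25426440, and members took 8.59% of R1 and 7.35% of R2. The median member had 118 reads, with quartiles of 34 and 361. Reads were concentrated in few members: the 717 with 1000 or more reads held 2246680 of the 3744574 reads and the 12 with most reads held 16.2%. At the read limit 192 members had 10 reads and 198 entries of the same length had 9. Among the first by position, the 54-nt member chr1:36996087-36996140 had 6 reads in R1 and 4 in R2, and the 67-nt entry chr1:36200740-36200806, just outside, had 2 and 7.

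The most used member was a 92-nt intron at chr8:114213305-114213396 (minus strand), with 59376 reads in R1 and 115730 in R2. The next was an 87-nt intron at chr5:143667156-143667242 (minus strand), with 73728 and 42431. The first was higher in R2 and the other higher in R1, each by less than 2-fold. Places 3 to 6 were neighbouring introns on the minus strand of chromosome 8, within chr8:108456117-108457048. They measured 73, 89, 74 and 83 nt. The 73-nt intron had 24039 reads in R1 and 34154 in R2, the 89-nt intron 19378 and 27483, the 74-nt intron 18425 and 24875, and the 83-nt intron 22450 and 19551. Of these 4, only the 83-nt intron was higher in R1. The other 6 of the first 12 held 15539 to 27444 reads, measured 82 to 99 nt and lay on chromosomes 5, 8, 9, 10 and 15. All 12 had both marks, an intron inside a single contig, and R1 and R2 reads less than 2-fold apart.

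Members of 50 to 64 nt had a median of 17 reads and members of 95 to 100 nt a median of 104, against 118 for all members. The 3 shortest members with most reads measured 50 nt, had neither mark, and lay at chr5:100802658-100802707 (46 and 50 reads in R1 and R2), chr6:40983104-40983153 (15 and 37) and chr16:11144158-11144207 (11 and 30). The 3 longest with most reads measured 100 nt and had both marks. They were an intron on chromosome 18 with 6710 and 6695 reads, chr12:70473211-70473310 with 2513 and 1533, and chr6:42306331-42306430 with 1798 and 1730. Under 65 nt the member with mark C and most reads was a 57-nt intron with both marks at chr8:87417584-87417640, with 212 reads in R1 and 273 in R2. It was chosen after its values were seen.

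Replicates R1 and R2 gave near-equal reads for most members. Ratios were formed after adding 0.5 reads and centred on the median of all junctions with 10 or more reads, a shift of 0.055 on the log2 scale. R1 and R2 lay more than 2-fold apart for 1198 members (14.1%), and for 18.5% of all 119036 junctions. Of these members 618 were higher in R2 and 580 in R1, while over all junctions 9.88% were higher in R2 and 8.62% in R1. Among members with 100 or more reads 156 of 4548 (3.43%) were this far apart, against 5.82% of all junctions of that read number, with 47 higher in R2 (2.03% of all such junctions were) and 109 higher in R1 (3.8%). The share fell with reads, from 42.2% of members with 10 to 19 reads to 3.07% at 1000 or more. With both marks it was 10.3%, with mark C alone 34.5% and with neither 48.5%, and the last 2 groups have fewer reads. Among members with 100 or more reads these shares were 3.16% (141 of 4457), 14.3% (6 of 42) and 19.5% (8 of 41).

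A replicate without reads was seen for 74 of the 8516 members, 46 of them at 0 in R1 and 28 at 0 in R2. The same was seen for 67 of 11379 junctions of over 100 to 200 nt, 177 of 35291 of over 200 to 1000 nt and 416 of 63631 above. Of the 74 members 43 had neither mark, 13 mark C alone, 1 mark A alone and 17 both. A count of 0 allows up to 3 reads. The deposited irreproducibility value was up to 0.1 for 99.6% of members, and 32 were above it. All 32 had 15 or fewer reads. The same share was 99.6% for introns of over 100 to 200 nt, 99.6% for over 200 to 1000 nt and 99.3% above 1000 nt.

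Among members with 1000 or more reads the widest gap was at chr4:141401014-141401096 (83 nt, minus strand, both marks), with 74 reads in R1 and 1783 in R2, a ratio of 24.1. The next gaps were far smaller. The 76-nt member chr8:86247802-86247877 had 1522 and 465 reads, 3.27-fold higher in R1. The 89-nt member chr14:21514921-21515009 had 1390 and 488, 2.85-fold higher in R1. The 90-nt member chr3:20174418-20174507 had 329 and 973, 2.96-fold higher in R2. These were chosen after their values were seen.

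**Figure D2:**
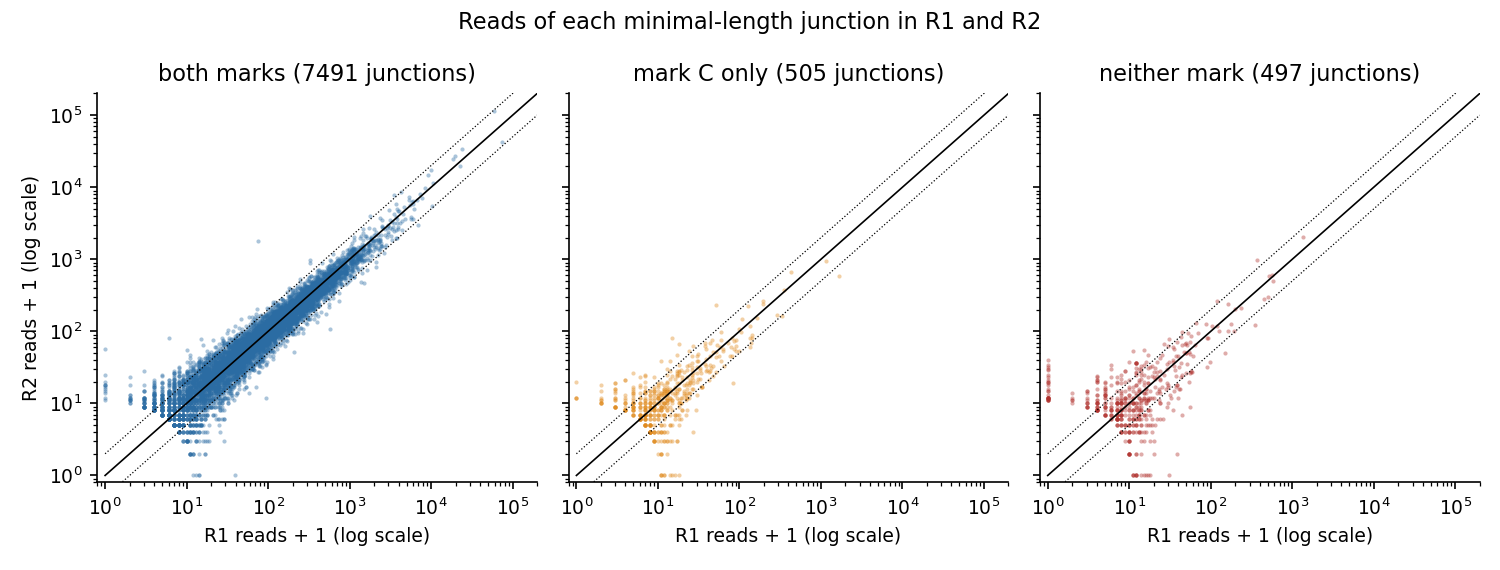
Reads of each member in R1 (horizontal axis) and R2 (vertical axis), both plus 1 on log scales, in panels for both marks, mark C only and neither mark. The solid line is equality and the dotted lines are 2-fold; points with both marks reach the 59376 and 115730 reads of the most used member and narrow around equality as reads grow, while the other panels mostly hold points under 100 reads.

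Contigs are deposited stretches of continuous coverage, and were set against the introns of the members. The list has 687468 contigs with a median length of 244 nt, and none overlap on a strand. For 6791 members (79.7%) the whole intron lay inside a contig of the same strand. The same was true of 68.4% of junctions of over 100 to 200 nt, 38.8% of over 200 to 1000 nt and 5.44% above 1000 nt. On the opposite strand 5.25% of member introns lay inside a contig, against 3.71%, 1.60% and 0.113% in the longer classes. Junctions with more reads had higher shares. Inside a contig were 62.6% of members with 10 to 19 reads, 74.5% with 50 to 99, 90.1% from 100 to under 1000 and 96.9% with 1000 or more. With 100 or more reads the shares were 91.1% for members, 81.9% for over 100 to 200 nt, 52.0% for over 200 to 1000 nt and 9.34% above.

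Shorter members were more often inside a contig than longer ones. The share was 97.1% from 50 to 54 nt, 94.6% from 70 to 74, 80.3% from 80 to 84 and 73.6% from 95 to 100 nt. It was 92.2% for members with neither mark and 93.9% with mark C alone, against 78.0% with both. Gaps between contigs can be as short as 11 nt, and 44855 gaps measured 50 to 100 nt, so the list does separate contigs at the length of these introns. No source used here says whether the skipped span of a junction read counts as coverage. The share that a shorter interval would reach by its length alone was not tested.

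**Figure D3:**
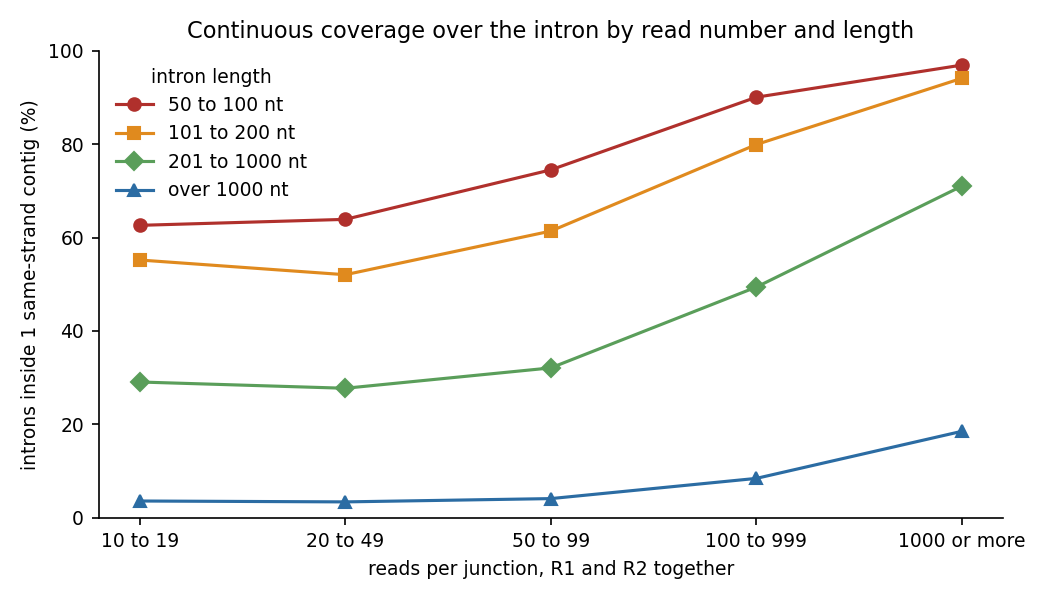
Percent of introns lying wholly inside a same-strand contig (vertical axis) by reads per junction (horizontal axis), with a line for each intron length class. The line for 50 to 100 nt runs from 62.6% to 96.9% and lies above those of the longer classes in every read bin.

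Splice sites used by more than 1 junction were found for 1369 members (16.1%), which shared an end with another junction of 10 or more reads. The shares were 21.2%, 19.7% and 22.9% in the 3 longer classes. The donor was shared by 845 members (9.92%) and the acceptor by 589 (6.92%). Only 11.2% of members with both marks shared an end, against 75.4% with mark C alone and 28.0% with neither. Counting partners with any reads, 46.6% of members shared an end.

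Where 2 members shared a donor, their acceptors differed most often by 3 nt. Of 236 such pairs 63 (26.7%) were 3 nt apart, 31 were 4 nt apart and 14 were 5 nt apart. Acceptors 3 nt apart are known as tandem acceptors, at which use of either keeps the reading frame. In 60 of the 63 pairs both junctions had mark C, and in 20 both had mark A. The shorter intron had more reads in 40 of the 63 pairs, with a median share of 71.1% (quartiles 40.6% and 92.2%). In 40 pairs the minor acceptor took 10% or more of the reads. Over the 49 pairs with 100 or more reads the median difference between R1 and R2 was 4.64 percentage points, and the largest was 26.8.

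Single pairs among those with most reads are given as examples. At chr7:134472070-134472166 (97 nt, plus strand) 89.04% of R1 reads (95% Wilson interval 87.4% to 90.5%) and 87.8% of R2 reads (85.9% to 89.5%) used the shorter intron. The pair at chr2:91776932-91777014 (83 nt, minus strand) went the other way, with 24.4% (22.2% to 26.7%) and 21.7% (18.9% to 24.8%). In both pairs the intervals of R1 and R2 overlap. Near-equal use was seen at chr7:26075985-26076070 (86 nt), with 47.1% (42.9% to 51.3%) and 51.7% (47.8% to 55.7%). The pair at chr8:108412419-108412495 (77 nt) lies in the third of the dense windows described further on, with 48.96% (44.7% to 53.2%) in R1 and 43.0% (38.8% to 47.3%) in R2. Intervals cover counting error only, since reads may be copies of 1 molecule.

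Pairs with a shared acceptor most often had donors 4 nt apart. Of 118 such pairs 32 (27.1%) were 4 nt apart, and 12 and 11 were 5 and 6 nt apart. Use of these donors was one-sided in most pairs. The minor donor took 10% or more of the reads in 6 of the 32 pairs, and the shorter intron had a median share of 7.28% with quartiles of 1.64% and 91.8%. Both junctions had mark C in 25 of the 32 pairs and mark A in 2. The 6 include pairs without marks at chr16:11144155-11144217 and chr7:110975218-110975282, inside sets of overlapping members described further on. An example with a well used minor donor was chr8:74206087-74206180 (94 nt, plus strand), whose shorter intron took 76.2% (67.2% to 83.3%) of R1 reads and 65.3% (56.7% to 73.1%) of R2 reads. Its intervals overlap.

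The widest ratios between junctions with a shared end were around the most used members. The 92-nt intron at chr8:114213305-114213396 had 11674 times the reads of a 93-nt junction whose acceptor lies 1 nt further, which had 3 reads in R1 and 12 in R2. The 73-nt intron at chr8:108456334-108456406 had 3 such partners of 74, 76 and 79 nt, at ratios of 1763, 3880 and 2771. On chromosome 11 the 64-nt member chr11:5607559-5607622 had 12 and 2 reads, while the 68-nt junction with the same acceptor had 5579 and 5595. Each such minor junction lacked mark A and had 14 to 33 reads in all.

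Members were spread over all chromosomes of the assembly and formed local groups. Most lay on chromosomes 7 (965), 11 (857), 17 (791) and 8 (657). Members made up 11.0% of the junctions with 10 or more reads on chromosome 17, 10.2% on chromosome 19, 3.59% on chromosome 13 and 3.38% on chromosome 1. The mitochondrial genome, whose genes are not known to hold introns in mammals, gave 2 members of 61 and 67 nt, with 14 and 24 and with 11 and 25 reads. Neither had a mark. Chromosome Y gave 6 members with 14 to 68 reads and both marks.

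Dense windows were of different kinds. The 10-kb window chr15:76420001-76430000 held 25 members of 63 to 98 nt out of 30 junctions. Of these, 15 lay on the minus and 10 on the plus strand, 23 had mark A, and together they lay at 23 separate sites. Its members summed to 3696 reads in R1 and 3580 in R2, with a median of 239 reads each. The highest, chr15:76428331-76428405 (75 nt), had 439 and 471 reads, and the next, chr15:76428161-76428239 (79 nt), had 440 and 294. The window chr8:108410001-108420000 held 19 members, all on the plus strand, at 17 sites, and 18 had mark A. Its highest members were chr8:108415306-108415395 (90 nt, 562 and 627 reads) and chr8:108412209-108412287 (79 nt, 508 and 642 reads).

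The window chr16:11140001-11150000 held 21 members at a single site. They all overlap within chr16:11144105-11144232, a span of 128 nt on the plus strand, and none had a mark. The most used, chr16:11144155-11144217 (63 nt), had 1351 reads in R1 and 2040 in R2. Variants with the same acceptor and a donor 4 nt to either side, 67 and 59 nt long, had 119 and 259 reads and 65 and 128 reads. The remaining 18 had 10 to 66 reads. All 21 summed to 1702 reads in R1 and 2716 in R2, and 330 entries with any reads overlap the span on that strand.

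**Figure D4:**
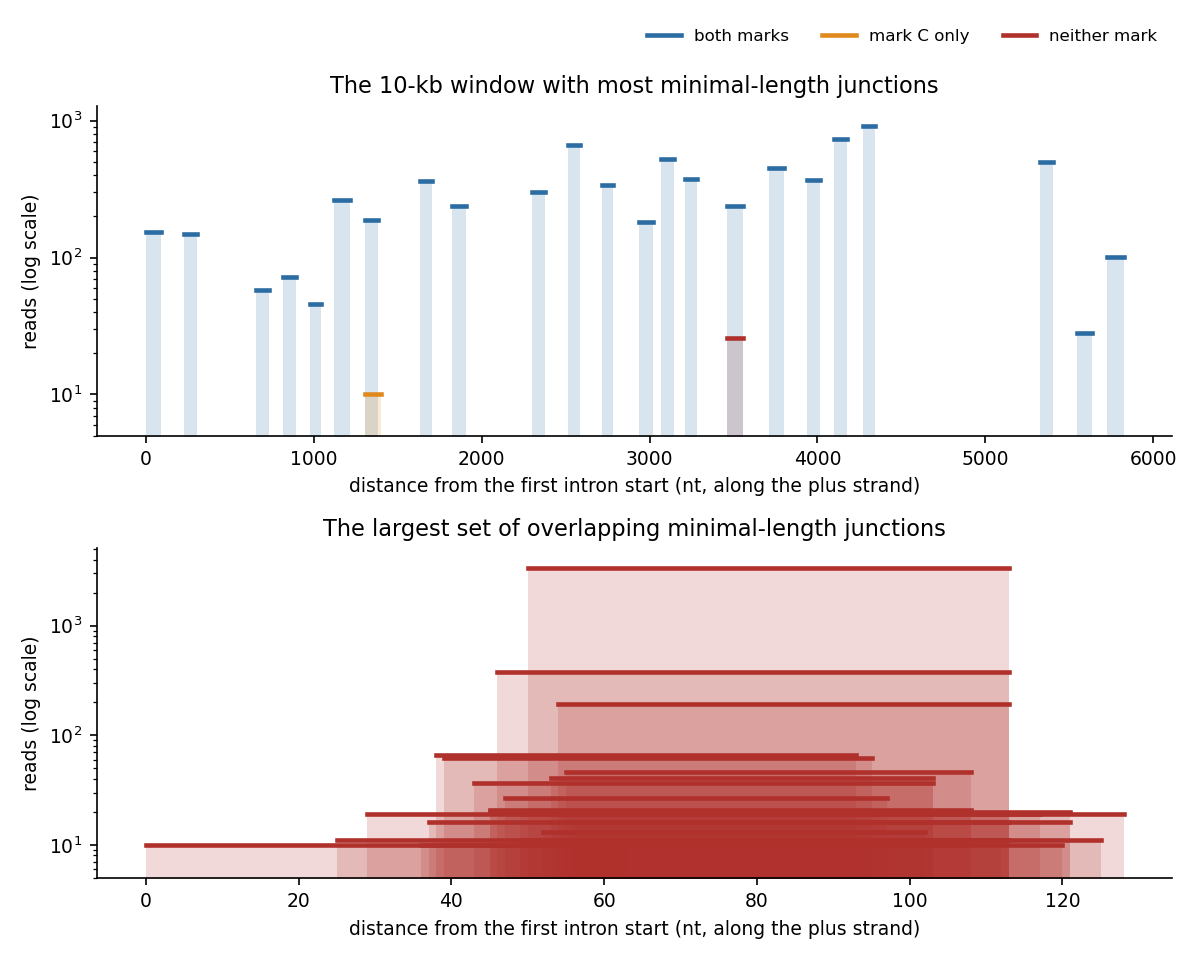
Members in the densest 10-kb window (upper panel, chromosome 15) and in the largest overlapping set (lower panel, chromosome 16), with distance in nt along the horizontal axis and reads on a log vertical axis. Bars span the introns and are coloured by mark; the upper panel shows 25 introns at 23 sites and the lower panel 21 introns without marks stacked on 128 nt.

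Overlap with another member was found for 800 members in 351 groups, 309 of them pairs. It was found for 4.50% of members with both marks, 49.5% with mark C alone and 42.5% with neither. Sets of 6 or more were rare, with 5 sets holding 56 members. After the chromosome 16 site came 12 members at chr7:110975195-110975290, led by a 64-nt junction with 373 and 962 reads, and 10 at chr17:87230970-87231165, led by a 70-nt junction with 29 and 61 reads. Another 6 overlapped at chr4:32443675-32443884, led by a 62-nt junction with 38 and 71 reads. In the set at chr5:143667147-143667249 the 87-nt intron with 116159 reads was accompanied by 6 junctions of 88 or 89 nt without marks, with 10 to 55 reads each. Of these 5 sets only the last was higher in R1.

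Introns next to members, with a stretch of up to 300 nt between, were compared with them in reads. The stretch is called an exon here, though no annotation showed it to be one or tied both introns to the same transcript. Such a neighbour was found for 8090 members, and the intervening exons of members with both marks had a median of 122 nt (quartiles 90 and 162). A neighbour of minimal length too was found for 2522 members (29.6%), and on both sides for 443 (5.20%). Members with both marks had about the same reads as their neighbours. The median log2 ratio of member to neighbour was -0.11 for a neighbour of 50 to 100 nt, -0.01 for over 100 to 200 nt, 0.04 for over 200 to 1000 nt and -0.02 above 1000 nt. Quartiles were -0.76 and 0.68 over all such neighbours. Members with mark C alone had a median of -4.00 and members with neither mark -3.40. The neighbour was the junction with most reads within the limit, which favours higher neighbours.

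Short introns were also counted in transcripts with known genes. Of 18833 matched transcripts at 1 TPM or more in both libraries, 5410 (28.7%) had an annotated intron of 50 to 100 nt. Over all 91424 matched transcripts, at any level, 14197 had one. What sets these shares apart was not tested. All matched transcripts with such an intron, at any level, held 21.1% of the TPM of matched transcripts in library 1 and 18.0% in library 2. These counts rest on 91424 of 103639 transcripts, those of equal length in both annotation versions, which held 68.2% and 68.8% of TPM. By gene, 3907 of 11572 protein-coding genes at 1 TPM or more in both libraries (33.8%) had such an intron and 449 had 5 or more. Expected counts assigned to genes came to 49686344 and 51393345.

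Genes of highest level with a short intron included enzymes of the exocrine pancreas and the translation machinery. Ctrb1, a chymotrypsinogen gene and the highest of these 12, had 1 such intron, and Ctrl, a related protease gene, had 4 and stood at 4322 and 4345 TPM. Library 1 was higher for Ctrb1, and Ctrl was near equal. Actb followed Ctrb1 with 8774 and 5947 TPM and 3 short introns, and Cd74, the invariant chain of antigen presentation, with 7693 and 6138 TPM and 1. Of the other 8, 6 encode ribosomal proteins (Rpl13, Rps21, Rps2, Rpl13a, Rplp0 and Rpl36), with mean levels of 2181 to 3202 TPM. The ferritin light chain gene Ftl1 stood at 2520 and 3221 TPM with 2 short introns, and Eef1a1 at 2373 and 2555 TPM with 6.

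Genes with most short introns were listed separately, and no relation between their number and level was tested. Each pair of start and end in any annotated transcript of a gene was counted, so overlapping alternatives count separately. Among genes at 10 TPM or more, Cpsf1, a subunit gene of the complex that cleaves RNA for polyadenylation, had 29 and stood at 47.9 and 41.0 TPM. Abca2, a lipid transporter gene, had 24 at 61.7 and 55.6 TPM. Flna, which encodes the actin crosslinker filamin A, had 23 at 443 and 502 TPM, and Sbf1 also had 23 at 307 and 279 TPM. The laminin gene Lamb2 and Stab1, a scavenger receptor gene of sinus endothelium, had 21 each at 37.9 and 36.3 and at 37.2 and 39.2 TPM. Edc4, an mRNA decapping scaffold gene, had 20 and Hspg2, the perlecan gene, 19.

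Genes for recognition of splice sites were present throughout. All 20 of a list of 20 reached 1 TPM in both libraries, with a median of 39.9 TPM in library 1 and 43.3 in library 2 (41.6 ± 2.44, SD, n = 2). For the donor site, the U1 particle genes Snrnp70, Snrpa and Snrpc stood at 83.0 ± 9.10, 105 ± 30.5 and 63.1 ± 21.5 TPM. For the branch point and acceptor, Sf1 stood at 191 ± 41.0, U2af2 at 134 ± 3.64 and U2af1 at 18.8 ± 0.658 TPM. Of the U2 particle genes, Sf3b1 stood at 33.9 ± 2.36 and Sf3a1 at 26.9 ± 2.57 TPM, with Snrpb2 lowest of the list at 1.66 ± 0.198 TPM. The pyrimidine tract binding gene Ptbp1 was highest at 246 ± 41.3 TPM. Hnrnpf and Hnrnph1, whose proteins bind runs of G, stood at 131 ± 1.27 and 34.9 ± 6.63 TPM. Of the 20 genes 14 had short introns of their own, 34 in all, where 33.8% of protein-coding genes at 1 TPM or more had any, with 6 in Prpf8 and 5 in Ptbp1.

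Transcripts that hold a short intron inside an exon were set beside those that splice it, in genes where matched transcripts made up 95% or more of the gene's TPM. This limit was set after seeing the data. Over 825 introns of 50 to 100 nt in 543 genes, with 10 TPM or more in both kinds together, the holding transcripts took a median of 11.1% in library 1 and 12.97% in library 2. Quartiles were 3.95% and 32.9% in library 1. For 905 introns of over 100 to 200 nt the medians were 10.8% and 12.1%. For a single short intron the 2 libraries differed by a median of 2.07 points. The holding transcripts exceeded the spliced ones in both libraries for 110 of the 825 short introns and for 171 of the 905 longer ones. These levels depend on how the authors' estimation divided reads among the transcripts of a gene.

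Single genes differed widely in this share. Actb transcripts that splice the printed 87-nt intron stood at 8692 and 5773 TPM, and the one that holds it at 73.0 and 57.7 TPM, or 0.833% and 0.990%. For Rps2 the values were 1386 and 1110 against 7.61 and 7.11 TPM. Eef1a1 had 2130 and 2420 against 217.5 and 111 TPM, and its holding share was 9.26% in library 1 and 4.40% in library 2. Of the introns that start with GC, Man2c1 had a holding share of 10.2% and 12.8% and Psme1 of 24.6% and 33.6%. The 60-nt intron of Atp6ap1 was spliced by 1 matched transcript at 9.61 and 15.1 TPM. It was held by 1 at 4.38 and 3.1 TPM, a share of 31.3% and 17.1%. The gene stood at 304 and 236 TPM, most of it in transcripts that neither splice nor hold this intron. The 63-nt intron of Adck5 had 13.9 and 10.7 against 7.67 and 6.75 TPM. For Vim the order was turned, with 215 and 114 TPM spliced against 529 and 481 TPM holding (71.0% and 80.9%). For Med12 it was 22.2 and 20.4 against 117 and 117 TPM (84.1% and 85.2%).

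**Figure D5:**
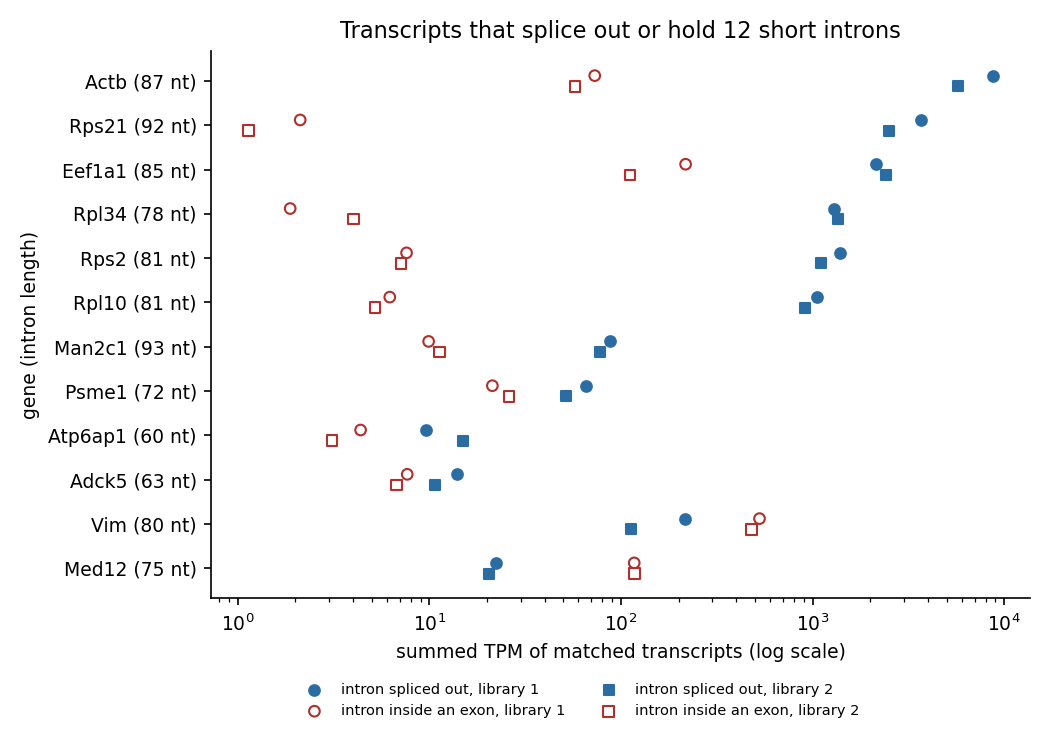
Summed TPM (log horizontal axis) of matched transcripts that splice out the intron (filled) or hold it inside an exon (open) for 12 introns of 60 to 93 nt, with circles for library 1 and squares for library 2. Filled symbols lie to the right for 10 genes and to the left for Vim and Med12, in both libraries.

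Retained-intron transcripts, as the annotation types them, were counted for genes with and without short introns. In 3279 genes with an annotated intron of 50 to 100 nt they held 18.0% of matched TPM in library 1 and 18.2% in library 2 (18.1% ± 0.133, SD, n = 2). In 6695 other genes the values were 15.0% and 17.4% (16.2% ± 1.67). Genes with short introns were higher in both libraries, by less in library 2. The difference was not tested. All these genes had 1 TPM or more in both libraries and a matched transcript. No limit on the matched part of a gene's TPM was set here. Matched transcripts held 68.2% and 68.8% of TPM, so unmatched transcripts could shift these shares. The type belongs to a transcript and does not say that the short intron is the one retained.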

How the data were processed

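Whole-series lists of junctions and contigs on mm9, and gene and transcript tables of each library on mm10 with GENCODE M4, were used; the builds are per the deposited notes. No source used here names the aligner, the quantifier or how the lists were made. Junction reads are raw counts that the authors deposited per junction for R1 and R2. The irreproducibility score and the contig signal are deposited values whose scales no header states, and contig signal served only to read the list. The deposited TPM and posterior mean TPM are scaled to a fixed total over each table, and expected counts are the authors' estimated read numbers. Positions are 1-based.

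Members, contig cover, shared ends, overlaps and neighbours were computed in Python 3.11.15 with numpy 2.4.6, pandas 2.3.3 and scipy 1.17.1, and checked on simulated lists. Ratios of R2 to R1 used 0.5 added reads. Annotated introns came from GENCODE M21, with transcripts matched by unversioned identifier and equal length. Members and gene lists were chosen with earlier results of these data known. The naming rule took the 12 members with most reads, the 3 shortest and 3 longest, the 6 highest in each of the 3 densest 10-kb windows, the 5 largest and 5 smallest ratios between junctions with a shared end, entries beside each threshold, the 20 recognition genes and the 12 most abundant protein-coding genes with such an intron. Printed introns lay outside annotated UTRs. The design has 1 group, so no test was made. Alternatives changed the length window, read minimum, irreproducibility limit, strand, cover, partner rule, marks and TPM limits. A tissue marker of the design is not reported here.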

Additional observations from a re-analysis of the deposited data

How the results depend on the processing

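Of 22 alternatives fixed with the design, 17 stayed within the limit set for their kind of result (1.5 times for a count, the 95% Wilson interval for a share of members, 1 SD of the libraries for other values), among them all 6 that changed the number of members (5879 to 11994, against 8516). With a read minimum of 100 the share of introns inside a contig was 91.1%, against 79.7%. Partners with any reads gave a shared-end share of 46.6%, and partners with at least 10% of the member's reads 13.6%, against 16.1%. An irreproducibility limit of 0.01 kept 94.5%, against 99.6%. Genes at 10 TPM or more gave a retained-intron share of 18.3%, against 18.1%. Another 6 alternatives were chosen after seeing the data. With both marks required, the contig share was 78.0%, the shared-end share 11.2%, the share of lengths divisible by 3 31.8% and the share over 2-fold apart 10.3%; that last share was 3.43% with 100 or more reads, against 14.1%. Without the limit on matched TPM, 929 introns gave a median holding share of 13.4% over the libraries, against 12.04%. Leaving out each library in turn gave a recognition-gene median of 39.9 to 43.3 TPM, 5844 to 5851 transcripts with a short intron against 5410 with both required, and a retained-intron share of 18.0% to 18.2%. No paired analysis was possible because there is a single group. Splice site letters of the members themselves were not analysed here. Members under 20 reads limit any statement on replicate differences.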
